A study of Canis lupus familiaris with 29 samples.

Results

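Pleiotrophin and midkine are the 2 members of a small family of secreted, heparin-binding growth factors, and they are described here with 5 of their receptors in canine pheochromocytoma and paraganglioma (PPGL). The members were taken by gene name from a table of counts over 30951 genes. Of 7 names, 5 were found: PTN (pleiotrophin) and the receptor genes ALK, PTPRZ1, SDC3 and NCL. MDK (midkine) and LTK were not found by name and are not analysed here. The receptors were taken for being known receptors of the ligands, whereas PTN was selected on its own level in these samples, in PPGLs against normal adrenal medullas (NAMs) and in 1 group of PPGLs against the other. Its values in those contrasts are therefore a description and carry no test.

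RNA was sequenced from tumor tissue of 19 client-owned dogs with PPGL, seen at several clinics, and from the NAMs of 10 healthy dogs kept for research. Chromaffin cells make catecholamines, and tumors of these cells are called pheochromocytoma inside the adrenal gland, the site of nearly all tumors studied, and paraganglioma elsewhere. The authors had divided the tumors by a principal component analysis of the same sequencing data into PPGL group 1 (7 tumors) and PPGL group 2 (12 tumors), after leaving out tumors that stood apart in such an analysis, so a p between the groups describes that split. Every replicate was a separate dog, tumor pieces had been snap-frozen or kept in RNAlater and NAMs snap-frozen, and breed, age and sex were not used here. Origin of the dog, handling of the tissue and tumor against normal tissue cannot be told apart.

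Pleiotrophin and midkine bind heparan and chondroitin sulfate chains, and through them or directly they engage several unlike receptors. ALK is a receptor tyrosine kinase that is active during development of the sympathetic nervous system, from which chromaffin cells also derive. PTPRZ1 is a receptor tyrosine phosphatase that pleiotrophin inhibits, SDC3 (syndecan-3) is a cell-surface heparan sulfate proteoglycan of neural cells, and NCL (nucleolin) is an abundant nucleolar protein that also appears at the cell surface, where it binds both ligands.

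Totals were 19258054 to 35918182 counts per sample in NAMs, 18493540 to 31919833 in group 1 and 18208718 to 24569667 in group 2. Levels are CPM, counts scaled to an equal library total after normalization by the trimmed mean of M-values (TMM). The floor was set at 3 counts, which is 0.0835 to 0.156 CPM for NAMs and, for PPGLs, 0.0940 to 0.165, both per unscaled total before TMM; only counting error is covered by it. Differences are log2 fold changes (log2 FC) with their standard error (SE) from edgeR's quasi-likelihood F test over all genes, with p adjusted by the Benjamini-Hochberg method. The threshold was an adjusted p of 0.05, or of 0.1 between the 2 PPGL groups.

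Markers of chromaffin cells were abundant in each group, as the labels say. All 11 genes of the list were found, and their summed level had a median of 32317.0 CPM in NAMs (range 17831.6 to 97041.9), 34417.3 CPM in group 1 (7817.5 to 118555) and 49535.5 CPM in group 2 (20783.0 to 103006). CHGB, a protein of the secretory granules, had the highest mean CPM of them in each group. TH, the first enzyme of catecholamine synthesis, ranged from 2.15 to 6712 CPM in group 1. In PPGLs against NAMs, 2 of the 11 genes were higher, 1 was lower and 8 did not pass the test, where 37.5% of all genes passed. None passed between the groups by edgeR, where 6.92% of all genes did.

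The NAM samples also held RNA of the adrenal cortex. For the list of 11 cortical genes, of which 10 were found, the summed level was 13288.6 to 64404.1 CPM in NAMs, 244.8 to 32184.3 CPM in group 2 and 52.0 to 1164 CPM in group 1. By mean CPM, CYP17A1 was the most abundant in NAMs and group 2, and STAR in group 1. MC2R and MRAP, the receptor for adrenocorticotropic hormone and its partner, were each at 0 in 4 of 7 tumors of group 1, CYP11A1 in 2 and HSD3B2 in 1. Of the 10 genes, 9 were lower in PPGLs than in NAMs (median log2 FC -3.19, beside 0.13 over all genes tested) and 9 were lower in group 1 than in group 2 (median -6.54, beside 0.04). Over all genes tested, 15.2% were lower in the first comparison and 2.95% in the second. Cortical RNA thus moved with both comparisons that follow, and values from a fit that holds the cortical score as a covariate stand beside the members where a sign or a call differs. That score, the mean log2 level of the list, hardly overlapped between the groups compared: it was 9.07 to 11.16 in NAMs, 3.35 to 10.01 in group 2 and -0.29 to 3.85 in group 1. Holding it takes away much of each contrast, so a lost call in that fit can follow from this separation alone.

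The ligand PTN (ENSCAFG00000003369, chromosome 16, 11283077 to 11382814, CanFam3.1, plus strand) had 0.458 CPM in the lowest NAM, a median of 1.86 CPM and 5.30 CPM in the highest. In group 1 its level was 8.47 CPM in the lowest tumor, 75.7 CPM at the median and 314 CPM in the highest, and in group 2 it was 0.621, 3.57 and 14.1 CPM. All 7 tumors of group 1 lay above every NAM, 6 of the 7 also lay above every tumor of group 2, and 3 of 12 tumors of group 2 lay above every NAM. In bulk tissue, fewer cells of a type and less RNA per cell cannot be told apart, and this holds for each gene described here.

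Mean PTN was 2.03 ± 1.50 CPM in NAMs (SD, n = 10), 96.5 ± 101 CPM in group 1 (SD, n = 7) and 4.21 ± 3.63 CPM in group 2 (SD, n = 12). The log2 FC was 4.23 (SE 0.99) for PPGLs against NAMs and 4.53 (SE 0.59) for group 1 against group 2. With all 3 groups in 1 fit it was 5.56 (SE 0.64) for group 1 and 1.04 (SE 0.51) for group 2, both against the same NAMs. These differences are those PTN was chosen by, and nothing is read from them. Replicate 2 of group 1 held the highest level, and without it the log2 FC was 3.49 against NAMs and 3.85 between the groups. Once the cortical score was held as a covariate, PPGLs against NAMs had a log2 FC of -0.19 (SE 0.75), and that between the groups was 4.72 (SE 1.35).

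**Figure D1:**
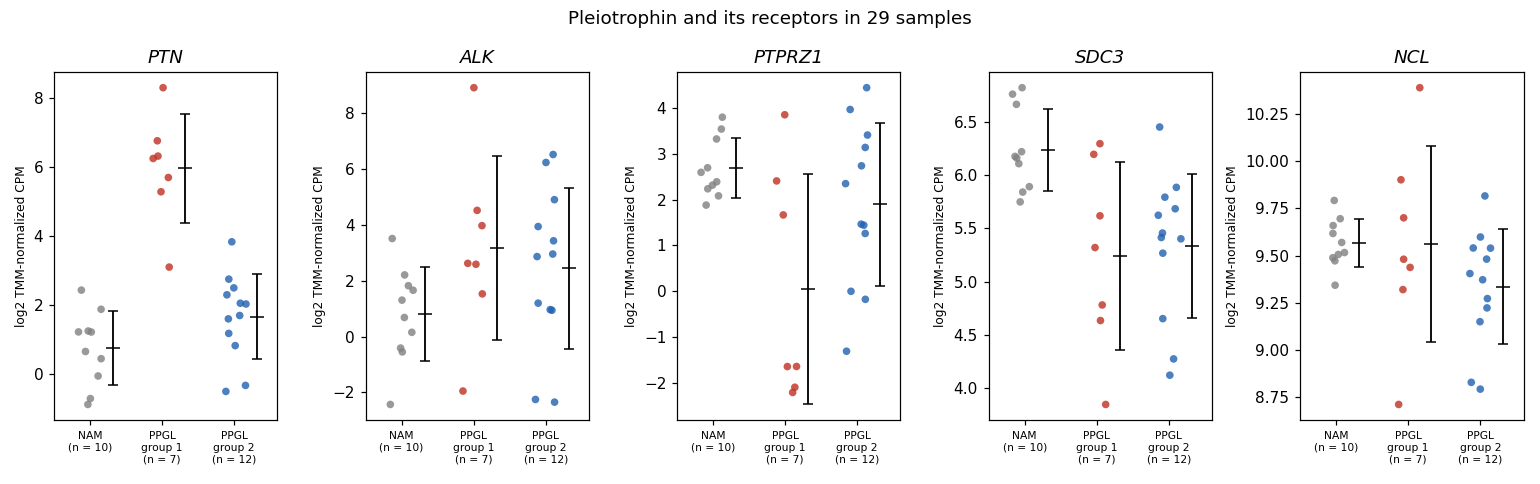
Each point is 1 dog, with the log2 TMM-normalized CPM (prior count 2) of a gene on the vertical axis and the 3 groups on the horizontal axis; bars are the mean and SD. PTN in all 7 tumors of group 1 lies above every NAM, PTPRZ1 in 4 tumors of group 1 and 1 of group 2 rests on 3 to 7 counts, and 14 of 19 PPGLs have less SDC3 than any NAM.

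Per kilobase of exon, which allows levels of different genes to be set side by side, NCL came first in each group, with a median of 235 CPM per kb in NAMs, 225 in group 1 and 211 in group 2. SDC3 followed in NAMs (43.2 CPM per kb) and in group 2 (26.0), and in group 1 PTN took that place (65.2), ahead of SDC3 (24.0). ALK and PTPRZ1 were the lowest in every group, at 0.398 and 0.927 CPM per kb in NAMs, 1.24 and 0.0392 in group 1, and 1.51 and 0.641 in group 2. In group 1 the spreads across tumors of PTN (mean 83.2 ± 87.0 CPM per kb, SD, n = 7) and SDC3 (26.4 ± 14.8) overlapped. The mean of ALK there (15.6 ± 36.4) was set by replicate 7, at 98.1 CPM per kb, and the other tumors had 0.0356 to 4.65. In NAMs the spreads of PTN (1.75 ± 1.29, SD, n = 10), PTPRZ1 (1.17 ± 0.586) and ALK (0.584 ± 0.670) overlapped too. So did those of PTN (3.63 ± 3.13, SD, n = 12), ALK (4.14 ± 6.28) and PTPRZ1 (1.08 ± 1.11) in group 2. Each sample gave the values of all these genes, and their order within samples was not tested.

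Of the 4 receptor genes found, by edgeR ALK was higher in PPGLs than in NAMs, SDC3 was lower, and PTPRZ1 and NCL did not pass the test. Both calls were lost in the fit that holds the cortical score. That of ALK was also lost by the Mann-Whitney U-test and with the sample number as a block. Across all 14766 genes tested in this comparison, 37.5% passed, 22.3% as higher and 15.2% as lower, and the receptors' median log2 FC was -0.25 beside 0.13 for all genes. ALK and SDC3 were also the 2 that passed in group 1 against NAMs, where 35.1% of 15201 genes did, and in group 2 against NAMs, where 32.9% did. None of the 4 passed between the groups by edgeR, where 6.92% of 14666 genes did, 3.97% as higher and 2.95% as lower in group 1, and none had an unadjusted p under 0.05 there. DESeq2's Wald test, by which 1793 of the 14666 genes passed, and the Mann-Whitney U-test, by which 299 did, also passed none of the 4 between the groups.

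ALK (ENSCAFG00000005297, chromosome 17, 23010308 to 23688841, minus strand) had 0.102 CPM in the lowest NAM, a median of 1.96 CPM and 11.3 CPM in the highest. In group 1 the lowest, median and highest tumors had 0.175, 6.08 and 482 CPM, and in group 2 they had 0.113, 7.45 and 91.8 CPM. The groups overlapped across most of their ranges, and a few tumors stood far above the rest: 3 of 7 tumors of group 1 and 4 of 12 of group 2 exceeded every NAM. Replicate 7 of group 1, with 14368 counts, held 90.0% of the ALK summed over its group, and the next highest levels were in replicates 8 and 1 of group 2 (91.8 and 75.3 CPM). At the other end, 2 tumors of group 2 and 1 NAM were at or under 3 counts, and replicate 1 of group 1 had 4 counts.

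The mean ALK level was 2.87 ± 3.30 CPM in NAMs (SD, n = 10), 76.5 ± 179 CPM in group 1 (SD, n = 7) and 20.3 ± 30.9 CPM in group 2 (SD, n = 12). For PPGLs against NAMs the log2 FC was 3.83 (SE 1.14, adjusted p = 0.00891 by edgeR), and 14 of 19 PPGLs lay above the NAM median. Without replicate 7 of group 1 it was 2.52 (adjusted p = 0.0239). The call was lost by the rank-based Mann-Whitney U-test (adjusted p = 0.0957), in the fit that holds the cortical score (log2 FC 2.05, adjusted p = 0.222) and with the sample number as a block (log2 FC 2.02, adjusted p = 0.186), and adjusted p ranged from 0.00229 to 0.222 over 8 alternatives.

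Against the same NAMs, ALK was higher in group 1 (log2 FC 4.72, SE 1.22, adjusted p = 0.00344) and in group 2 (log2 FC 2.81, SE 1.07, adjusted p = 0.0431). DESeq2 replaced the count of replicate 7 as an outlier and gave 1.53 for group 1 (adjusted p = 0.158; range over 5 alternatives 0.00244 to 0.158). With no low-count filter the adjusted p for group 2 was 0.0508 (range 0.00136 to 0.0508). Between the groups the log2 FC was 1.87 (SE 1.17, adjusted p = 0.393), without replicate 7 it was -1.19 (adjusted p = 0.643), and in the fit that holds the cortical score it was -0.53 (SE 4.01, adjusted p = 0.986; range over 8 alternatives 0.344 to 0.986). Medians of the groups, 6.08 and 7.45 CPM, were close.

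PTPRZ1 (ENSCAFG00000003510, chromosome 14, 59827650 to 59943315, plus strand) was evenly expressed in NAMs, from 3.60 CPM in the lowest through a median of 5.57 CPM to 13.9 CPM in the highest. In group 1 the lowest, median and highest tumors had 0.131, 0.235 and 14.4 CPM, and in group 2 they had 0.318, 3.85 and 21.8 CPM. Tumors lay on both sides of the NAM range, 11 of 19 below every NAM and 3 above every NAM. In group 1, replicates 1, 2, 5 and 7 had 3, 5, 5 and 7 counts, near the 6 counts of the lowest tumor of group 2 and below the other tumors of that group, whereas replicate 4 of group 1 was above every NAM.

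Mean PTPRZ1 was 7.03 ± 3.52 CPM in NAMs (SD, n = 10), 3.36 ± 5.26 CPM in group 1 (SD, n = 7) and 6.50 ± 6.67 CPM in group 2 (SD, n = 12). The log2 FC of PPGLs against NAMs was -0.40 (SE 0.62, adjusted p = 0.645), and that of group 1 against group 2 was -0.96 (SE 0.93, adjusted p = 0.605). With 1 sample left out, the former ranged from -0.67 to -0.23, and without replicate 4 of group 1 the latter was -2.12. With the sample number as a block they were -0.93 and -2.49, and neither passed. Holding the cortical score, the values were 0.78 (adjusted p = 0.622) and 0.81 (adjusted p = 0.941), and adjusted p ranged from 0.208 to 0.689 over 8 alternatives for the first comparison and from 0.462 to 0.941 for the second.

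PTPRZ1 was compared with the Schwann and sustentacular cell list, markers of the glial-like cells that surround chromaffin cells. Within group 1 the Pearson r of PTPRZ1 with the mean log2 level of that list was 0.85 (exact permutation p = 0.00972, adjusted p = 0.125) and Spearman's rho was 0.86 (p = 0.0238, adjusted p = 0.268, exact permutation). Within group 2, r was 0.83 (permutation p = 0.00127, adjusted p = 0.114) and rho 0.82 (permutation p = 0.00215, adjusted p = 0.0645). Without the 2 tumors farthest from the median score, r was 0.72 in group 1 and 0.71 in group 2. Neither relation passed 0.05 after adjustment over the 90 relations between members and marker lists.

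Of the 10 genes of that glial list, 9 were found and 7 tested. None passed in PPGLs against NAMs or between the groups by edgeR, beside 37.5% and 6.92% of all genes. The median log2 FC was -0.85 and 0.54. Their summed level was 60.7 to 179 CPM in NAMs, 2.50 to 249 CPM in group 1 and 12.1 to 133 CPM in group 2. By mean CPM, CDH19 was the most abundant in NAMs and ERBB3 in both PPGL groups. PMP2 was at 0 in all 10 NAMs and 18 of 19 PPGLs, and S100B was at 0 in 7 of 19 PPGLs, GFAP in 3 and FOXD3 in 1. The part of these cells in the level of PTPRZ1 was not tested.

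SDC3 (ENSCAFG00000011234, chromosome 2, 70056458 to 70088426, plus strand) ranged in NAMs from 53.7 CPM through a median of 71.9 CPM to 113 CPM. In group 1 it had 14.3 CPM in the lowest tumor, 39.9 CPM at the median and 78.5 CPM in the highest, and in group 2 it had 17.3, 43.2 and 87.5 CPM. Lower levels were general, as 5 of 7 tumors of group 1 and 9 of 12 of group 2 lay below every NAM, and no tumor lay above every NAM. The 2 PPGL groups overlapped almost fully.

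Mean SDC3 was 78.0 ± 21.7 CPM in NAMs (SD, n = 10), 43.9 ± 24.6 CPM in group 1 (SD, n = 7) and 44.3 ± 19.2 CPM in group 2 (SD, n = 12). In PPGLs against NAMs it fell by 0.82 on the log2 scale (SE 0.23, adjusted p = 0.00582), with 16 of 19 PPGLs below the NAM median. Against the same NAMs the log2 FC was -0.84 in group 1 (SE 0.31, adjusted p = 0.0346) and -0.82 in group 2 (SE 0.26, adjusted p = 0.0161). Between the groups the log2 FC was -0.01 (SE 0.33, adjusted p = 0.995), and 0.70 (SE 0.76, adjusted p = 0.83) when the cortical score was held, with adjusted p from 0.83 to 0.999 over 8 alternatives.

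SDC3 was also compared with the cortical list, and neither PPGL group passed after adjustment. In group 2 the r of SDC3 with the cortical score was 0.76 (permutation p = 0.00389, adjusted p = 0.125), with a rho of 0.83 (permutation p = 0.00168, adjusted p = 0.0645), and r was 0.86 without the 2 tumors farthest from the median. In group 1, where cortical markers were lowest, r was -0.69 (exact permutation p = 0.0847, adjusted p = 0.494), rho was -0.57 (exact permutation p = 0.2, adjusted p = 0.646), and r was 0.06 without 2 tumors. Holding the cortical score, SDC3 in PPGLs against NAMs had a log2 FC of -0.68 and no longer passed (adjusted p = 0.159; range over 8 alternatives 0.00192 to 0.159). Scaled by library size alone, which moved the median log2 FC of all genes in group 1 against NAMs by 0.11, SDC3 in that comparison was at -0.67 (adjusted p = 0.105; range over 5 alternatives 0.018 to 0.105).

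**Figure D2:**
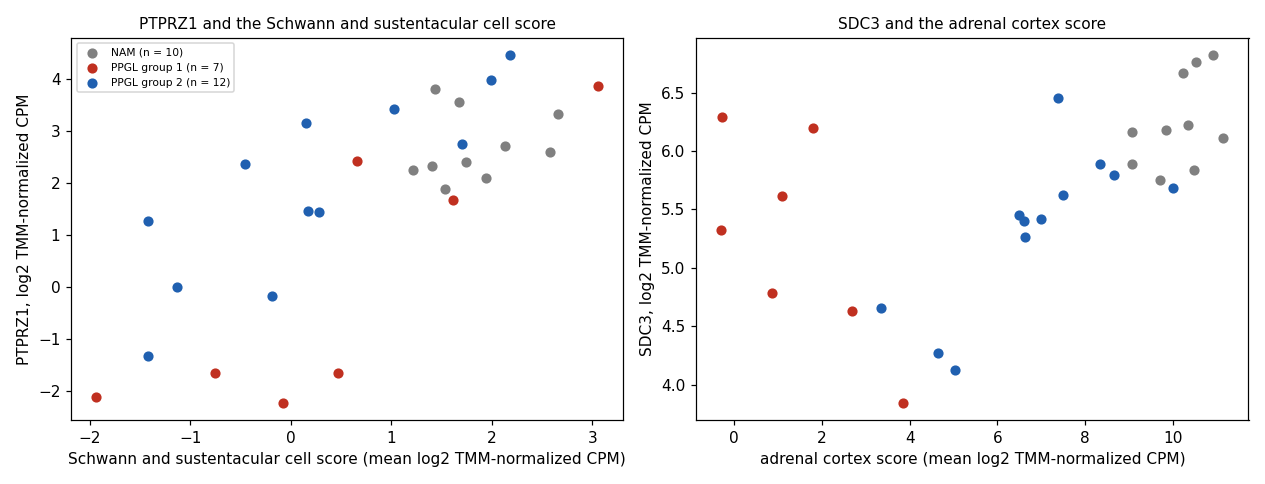
Each point is 1 dog. PTPRZ1 (log2 TMM-normalized CPM) is plotted against the Schwann and sustentacular cell score and SDC3 against the adrenal cortex score, each score being the mean log2 TMM-normalized CPM of its list; r was 0.85 in group 1 and 0.83 in group 2 for the first, and -0.69 and 0.76 for the second, and none passed after adjustment.

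NCL (ENSCAFG00000011037, chromosome 25, 43330799 to 43384258, minus strand) was the most evenly expressed receptor, from 649 CPM in the lowest NAM through a median of 746 CPM to 887 CPM in the highest. The lowest, median and highest tumors had 418, 714 and 1343 CPM in group 1 and 443, 670 and 902 CPM in group 2. The tumors spread to both sides of the NAMs, with 7 of 19 below every NAM and 3 above, and replicate 7 of group 1 was the highest of all samples. The mean was 761 ± 68.6 CPM in NAMs (SD, n = 10), 799 ± 292 CPM in group 1 (SD, n = 7) and 658 ± 132 CPM in group 2 (SD, n = 12). Neither PPGLs against NAMs (log2 FC -0.10, SE 0.14, adjusted p = 0.613) nor group 1 against group 2 (0.28, SE 0.20, adjusted p = 0.462) passed the test. With 1 sample left out these log2 FC ranged from -0.17 to -0.07 and from 0.11 to 0.38, and neither passed. The lowest of each was without replicate 7 of group 1.

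Ligand and receptors were then compared tumor by tumor within each PPGL group, since the groups differ in PTN and a pooled relation would rest on that difference. Of 8 relations, PTN with 4 receptors in 2 groups, none passed an adjusted p of 0.05, and none had an unadjusted permutation p under 0.05, by Pearson's r or by Spearman's rho. The lowest adjusted p was 0.514 for r and 0.712 for rho.

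The relation of PTN with PTPRZ1 had the lowest unadjusted p for r in group 1, with r = -0.70 (exact permutation p = 0.0643, adjusted p = 0.514) and rho = -0.36 (exact permutation p = 0.444, adjusted p = 0.783). Without the 2 tumors farthest from the median PTN, r was -0.32. The 4 tumors of group 1 in which PTPRZ1 was at or under 7 counts had PTN levels of 51.6, 314, 108 and 75.7 CPM, and the tumor with the most PTPRZ1 in that group, replicate 4 at 14.4 CPM, had the least PTN at 8.47 CPM. In group 2 the sign was the opposite, with r = 0.38 (permutation p = 0.22, adjusted p = 0.585) and rho = 0.52 (permutation p = 0.089, adjusted p = 0.712), and r was 0.44 without 2 tumors.

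High ALK did not go with one level of PTN. Replicate 7 of group 1 had 482 CPM of ALK and 75.7 CPM of PTN, its group's median, while replicate 8 of group 2 had 91.8 CPM of ALK and 0.711 CPM of PTN. Replicate 1 of group 2 combined 75.3 CPM of ALK with the highest PTN of that group, 14.1 CPM, and replicate 1 of group 1 had 51.6 CPM of PTN with ALK near the floor at 0.175 CPM. For ALK, r with PTN was 0.20 in group 1 (exact permutation p = 0.663, adjusted p = 0.745) and 0.28 in group 2 (permutation p = 0.379, adjusted p = 0.745), with a rho of 0.29 (exact permutation p = 0.556, adjusted p = 0.783) and 0.14 (permutation p = 0.668, adjusted p = 0.783). Without the 2 tumors farthest from the median PTN, r was 0.17 in group 1 and 0.46 in group 2.

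SDC3 gave an r with PTN of 0.60 in group 1 (exact permutation p = 0.153, adjusted p = 0.585) and -0.14 in group 2 (permutation p = 0.675, adjusted p = 0.745). Its rho was 0.57 (exact permutation p = 0.2, adjusted p = 0.783) and 0.01 (permutation p = 0.991, adjusted p = 0.991), and r without 2 tumors was 0.51 and 0.48. NCL gave an r of 0.16 in group 1 (exact permutation p = 0.745, adjusted p = 0.745) and -0.12 in group 2 (permutation p = 0.714, adjusted p = 0.745). Its rho was 0.21 (exact permutation p = 0.662, adjusted p = 0.783) and -0.13 (permutation p = 0.685, adjusted p = 0.783), and r without 2 tumors was 0.32 and 0.14. With 7 and 12 tumors, a p above the threshold does not show that a relation is absent.

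**Figure D3:**
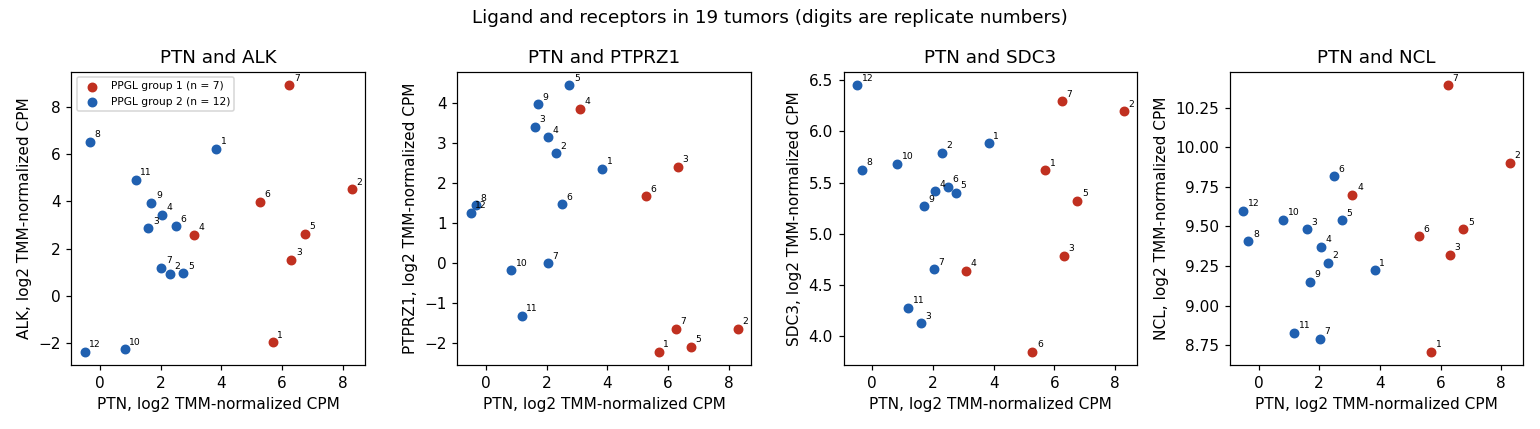
Each point is 1 of 19 tumors, labelled by its replicate number, with PTN on the horizontal axis and a receptor gene on the vertical axis, both as log2 TMM-normalized CPM (prior count 2). None of the 8 relations within groups passed the test; in group 1, the 4 tumors lowest in PTPRZ1 have PTN of 51.6 to 314 CPM.

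Among the 90 relations of the 5 members with 9 marker lists within each group, none passed after adjustment. The lowest adjusted p was 0.114 for r and 0.0645 for rho, and 11 relations had an unadjusted permutation p under 0.05 for r and 9 for rho. Of the 11, NCL held 5, PTPRZ1 3, SDC3 2 and PTN 1, and ALK none. In group 2, NCL had an r of 0.72 with the chromaffin list (permutation p = 0.00811, adjusted p = 0.125) and of -0.74 with the T cell list (permutation p = 0.00643, adjusted p = 0.125), with a rho of 0.62 (permutation p = 0.037, adjusted p = 0.37) and -0.82 (permutation p = 0.00163, adjusted p = 0.0645). Without the 2 tumors farthest from the median score these r were 0.60 and -0.61. The other 3 for NCL, also in group 2, were r = -0.74 with the pericyte list (permutation p = 0.00483, adjusted p = 0.125), -0.73 with the macrophage list (permutation p = 0.00833, adjusted p = 0.125) and -0.67 with the mitosis list (permutation p = 0.0181, adjusted p = 0.181). In group 1 the r of NCL was -0.17 with the chromaffin, -0.48 with the T cell, -0.12 with the pericyte, 0.28 with the macrophage and 0.65 with the mitosis list. SDC3 in group 1 had an r of 0.86 with the mitosis list (exact permutation p = 0.0133, adjusted p = 0.15), and 0.55 without 2 tumors, while in group 2 it was -0.54. PTPRZ1 in group 2 had an r of -0.59 with the pericyte list (permutation p = 0.0372, adjusted p = 0.304), and 0.42 in group 1. PTN in group 1 had an r of 0.75 with the macrophage list (exact permutation p = 0.0298, adjusted p = 0.268) and a rho of 0.86 (exact permutation p = 0.0238, adjusted p = 0.268), and r was 0.55 without 2 tumors and -0.12 in group 2.

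The counts of the other marker lists stand beside 22.3% of all genes higher and 15.2% lower in PPGLs against NAMs, and 3.97% higher and 2.95% lower in group 1 against group 2. Mitosis genes were higher in PPGLs than in NAMs for 10 of 11 tested (median log2 FC 3.04) and higher in group 1 than in group 2 for 9 of 11 (median 1.85). Their summed level was 20.3 to 94.2 CPM in NAMs, 33.8 to 1789 CPM in group 1 and 48.2 to 211 CPM in group 2. By mean CPM, AURKB was the most abundant in NAMs and TOP2A in both PPGL groups. Fibroblast genes were higher in PPGLs for 5 of 9 tested (median 2.20), with a summed level of 661 to 1254 CPM in NAMs, 532 to 6877 CPM in group 1 and 2080 to 27280 CPM in group 2, THY1 the most abundant and MFAP5 at 0 in 6 PPGLs and 1 NAM, and DPT in 1 PPGL.

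Endothelial genes were lower in PPGLs for 5 of 8 (median log2 FC -0.74), with summed levels of 435 to 1251 CPM in NAMs, 203 to 1024 CPM in group 1 and 252 to 888 CPM in group 2; by mean CPM, VWF was the most abundant in NAMs and PECAM1 in both PPGL groups. Pericyte and smooth muscle genes were higher for 3 of 7 in PPGLs (median 1.14) and lower for 2 of 7 in group 1 against group 2 (median -1.68), with RGS5 the most abundant and summed levels of 384 to 1617 CPM, 248 to 3995 CPM and 724 to 5103 CPM in NAMs, group 1 and group 2. Macrophage genes were lower for 2 of 7 in PPGLs (median -0.23), with summed levels of 298 to 1034 CPM, 177 to 910 CPM and 130 to 1720 CPM in the same order, and C1QB the most abundant. Of 5 T cell genes tested, 4 were higher and 1 lower in PPGLs (median 1.93), with summed levels of 10.5 to 66.7 CPM, 4.75 to 42.8 CPM and 8.49 to 284 CPM. By mean CPM, CD5 was the most abundant T cell gene in NAMs, CD2 in group 1 and CD4 in group 2, and CD3D and CD3G were each at 0 in 1 PPGL and CD8A in 1 NAM. Fibroblast, endothelial, macrophage and T cell genes gave no call between the groups by edgeR.

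The genes whose level across the 19 PPGLs was most like that of PTN were ISL1, MCM2, ALDH3A2, STAT5A and CNST, by Spearman's rho among 12749 named genes. ISL1, a transcription factor of the sympathetic lineage, had a rho of 0.87 over all tumors, 0.89 within group 1 and 0.64 within group 2. Its level was 6.13 to 353 CPM in group 1, 0 to 38.6 CPM in group 2 and 18.7 to 59.9 CPM in NAMs, so that, unlike PTN, it was not lowest in NAMs. MCM2, a subunit of the replicative helicase, had a rho of 0.85 over all tumors, 0.32 within group 1 and 0.62 within group 2. For ALDH3A2 these were 0.84, 0.43 and 0.56, for STAT5A 0.83, 0.11 and 0.74, and for CNST 0.83, 0.04 and 0.59. The value over all tumors includes the difference between the groups that PTN was chosen by.

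Other genes of the pathway were counted in lists. Of 16 further receptors of the ligands, 15 were tested in PPGLs against NAMs, where 3 were higher and 5 lower, beside 22.3% and 15.2% of all genes (median log2 FC -0.24, beside 0.13 over all genes). Syndecan-2 (SDC2) was the most strongly supported, at a mean of 149 ± 38.2 CPM in NAMs (SD, n = 10) and 20.7 ± 20.5 CPM in PPGLs (SD, n = 19), with a log2 FC of -2.85 (SE 0.40, adjusted p = 5.43e-06). ITGA6, an integrin subunit, was lower (log2 FC -1.86, SE 0.30, adjusted p = 2.58e-05), and ITGB1, its partner subunit, was higher (0.47, SE 0.12, adjusted p = 0.00355). Between the groups 1 of 16 was higher, LRP8, a lipoprotein receptor (log2 FC 0.77, SE 0.20, adjusted p = 0.0381), and 1 was lower, SDC2 (-1.88, SE 0.51, adjusted p = 0.0475), with a median of -0.44 beside 0.04 over all genes, of which 6.92% passed. SDC2, like SDC3, was thus lower in PPGLs than in NAMs, whereas only SDC2 of the pair passed between the groups; the difference between the 2 genes was not tested.

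Of 14 tested enzymes that build and edit heparan sulfate, the sugar chain both ligands bind, 6 were higher and 3 lower in PPGLs against NAMs, where 37.5% of all genes passed (median log2 FC 0.33). SULF2, which removes sulfate groups from the finished chain outside the cell, had a mean of 29.1 ± 10.2 CPM in NAMs (SD, n = 10), 678 ± 507 CPM in group 1 (SD, n = 7) and 253 ± 141 CPM in group 2 (SD, n = 12). Its log2 FC was 3.82 in PPGLs against NAMs (SE 0.49, adjusted p = 1.47e-06) and 1.44 in group 1 against group 2 (SE 0.46, adjusted p = 0.0894), the 1 call among the 14 between the groups, beside 6.92% of all genes. EXT1, a subunit of the polymerase that extends the chain, was lower in PPGLs (log2 FC -1.59, SE 0.21, adjusted p = 2.85e-06), and so was the sulfotransferase HS6ST2 (-2.03, SE 0.33, adjusted p = 3.86e-05). The means of HS6ST1 and HS6ST3 went the other way and were higher in PPGLs than in NAMs. For HS6ST3 they were 3.92 ± 1.76 CPM in NAMs (SD, n = 10) and 20.1 ± 12.8 CPM in PPGLs (SD, n = 19). The genes named by adjusted p thus do not give a direction for the list, and sulfation of the chain was not tested.

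Of 13 chondroitin sulfate enzymes tested, 3 were higher and 2 lower in PPGLs against NAMs, where 37.5% of all genes passed (median log2 FC 0.11), and 1 was lower between the groups, where 6.92% did (median -0.39). CHSY1, a chondroitin synthase, was lower in both comparisons, by a log2 FC of -1.55 (SE 0.32, adjusted p = 0.000383) in PPGLs and of -1.19 (SE 0.36, adjusted p = 0.0749) in group 1 against group 2. CSGALNACT2, which starts the chain, was higher in PPGLs (0.93, SE 0.18, adjusted p = 0.000216), and DSE, which converts chondroitin to dermatan sulfate, was lower (-1.15, SE 0.24, adjusted p = 0.000518).

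Among 10 ligands and substrates of PTPRZ1, 1 was higher and 1 lower in PPGLs against NAMs, where 37.5% of all genes passed (median log2 FC 0.27). These were the kinase FYN (0.53, SE 0.15, adjusted p = 0.00749) and CTNNB1, which encodes beta-catenin (-0.34, SE 0.13, adjusted p = 0.0389). Between the groups 2 were higher and none lower, beside 6.92% of all genes (median 0.20), both neural cell adhesion molecules. NCAM1 had a mean of 186 ± 82.1 CPM in group 1 (SD, n = 7) and 56.8 ± 21.5 CPM in group 2 (SD, n = 12), with a log2 FC of 1.71 (SE 0.27, adjusted p = 0.00541). NRCAM had 175 ± 71.3 CPM and 52.5 ± 32.2 CPM (log2 FC 1.73, SE 0.37, adjusted p = 0.0174).

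No gene of the list of ALK and LTK ligands, 4 names for 2 cytokines, was found by name. Of 13 adaptors and effectors of ALK, 1 was higher and 3 lower in PPGLs against NAMs, where 37.5% of all genes passed (median log2 FC 0.07). PIK3CA, a catalytic subunit of phosphoinositide kinase (-1.44, SE 0.23, adjusted p = 3.27e-05), and the adaptor IRS1 (-1.54, SE 0.28, adjusted p = 9.46e-05) were lower, and the adaptor GRB2 was higher (0.45, SE 0.11, adjusted p = 0.00151). Between the groups 2 were lower and none higher, beside 6.92% of all genes (median -0.09): the kinase JAK3 (-5.13, SE 0.86, adjusted p = 0.00541) and the adaptor SHC1 (-0.73, SE 0.24, adjusted p = 0.094). JAK3 had a mean of 502 ± 202 CPM in NAMs (SD, n = 10), 125 ± 186 CPM in group 2 (SD, n = 12) and 3.57 ± 2.56 CPM in group 1 (SD, n = 7).

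MAP kinase feedback genes are induced by the kinase cascade below ALK and many other receptors. Of 14 tested, 1 was higher and 3 lower in PPGLs against NAMs, where 37.5% of all genes passed (median log2 FC -0.09), with PHLDA1 (-2.88, SE 0.50, adjusted p = 6.91e-05), ETV4 (-1.78, SE 0.43, adjusted p = 0.00187) and ETV1 (-1.37, SE 0.37, adjusted p = 0.00417) the lowest in adjusted p. Between the groups 3 were lower in group 1 and none higher, beside 6.92% of all genes (median -0.25): the phosphatases DUSP5 (-3.47, SE 0.77, adjusted p = 0.0219) and DUSP4 (-2.69, SE 0.68, adjusted p = 0.0366), and PHLDA1 (-2.50, SE 0.58, adjusted p = 0.0253). Group means were 1.99 ± 1.34 CPM for DUSP5 in group 1 (SD, n = 7) and 21.9 ± 22.0 CPM in group 2 (SD, n = 12). In both comparisons 9 of 10 cortical genes were lower, and the part of cortical RNA in these lists was not tested gene by gene.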

How the data were processed

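The authors deposited raw exon counts of stranded mRNA libraries for 30951 Ensembl genes in 29 samples. Per the submitters' processing notes, STAR aligned reads to CanFam3.1 and HTSeq counted them, whereas the deposited counts are labelled as those of another program, featureCounts. The strand setting of the counting is not given in the sources used here. No member shares exon bases with another gene of the table. The deposited counts were filtered with edgeR's filterByExpr (minimum count 10, minimum total 15) and normalized by TMM. PPGLs and NAMs were compared in all 29 samples, the groups in the 19 PPGLs, and each group with the NAMs in 1 fit of 3 groups, by the two-sided quasi-likelihood F test. Scores and relations used TMM-normalized CPM on the log2 scale (prior count 2). Relations had two-sided permutation p, exact over 5040 pairings for 7 tumors and from 100000 permutations for 12, with Benjamini-Hochberg adjustment over 8 and 90 relations.

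The members and gene lists were chosen with earlier results of these data known. Named genes are all members, up to 3 genes per pathway list and comparison with the lowest adjusted p among those that passed, and the 5 named genes most like PTN by rho. HS6ST1 and HS6ST3 were named in addition, for comparison with HS6ST2. Alternatives were other size factors, filters and tests (DESeq2, Mann-Whitney U), the sample number as a block, the cortical score as a covariate, and samples left out. The edgeR test was also run on simulated counts with known changes in the layout of both main comparisons. Software was Python 3.11.15 (numpy 2.4.6, scipy 1.17.1, pandas 2.3.3, matplotlib 3.10.9) and R 4.3.3 (DESeq2 1.42.0, limma 3.58.1, edgeR 4.0.16). Closest libraries within a group differed by far more than sampling noise.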

Additional observations from a re-analysis of the deposited data

Results flagged for a closer look

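In groups of 7 to 10 samples, 4 values lay far from the others of their group on the CPM scale, by the gap to the nearest sample over the range of the group. ALK stood at 482 CPM in replicate 7 of PPGL group 1 and at 11.3 CPM in replicate 3 of the NAMs, PTN at 314 CPM in replicate 2 of group 1, and PTPRZ1 at 14.4 CPM in replicate 4 of group 1. These are 4 of 10 sets of values (5 genes in NAMs and in group 1). PTN was selected on its own level, so its value is a description here and carries no test. No chance rate is set beside the count, which depends on the scale. On the log2 scale 0 of the 10 stood apart in this way. Group 2, with 12 tumors, was too large for this rule and was not examined by it.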

How the results depend on the processing

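Of 231 values under other settings, samples left out apart, 203 kept their direction and side of the threshold or, for counts and values with no test, stayed near their size. Of 297 with 1 sample left out, 285 did. Genes that passed between the groups numbered 1015, and 1793 by DESeq2, 299 by the Mann-Whitney U-test and 101 with the cortical covariate. With 1 sample left out they ranged from 525 (without replicate 7 of group 1) to 1218, with 674 without replicate 4 of group 2. In PPGLs against NAMs 2170 passed with the covariate, and 4954 to 5790 with 1 sample left out, beside 5541. The cortical score nearly separates the groups compared, so fewer calls with it can follow from that alone. The cortical covariate turned PTN (log2 FC -0.19), PTPRZ1 (0.78) and, between the groups, ALK (-0.53), PTPRZ1 (0.81) and SDC3 (0.70). It also ended the calls of ALK (2.05) and SDC3 (-0.68) in PPGLs against NAMs. The Mann-Whitney U-test ended the call of ALK there (log2 FC unchanged at 3.83). DESeq2, which replaced outlying counts of ALK, gave -0.56 for it between the groups. With 1 sample left out, ALK between the groups ranged from -1.19 to 2.47 and SDC3 from -0.19 to 0.15. Library size alone gave 0.10 for SDC3 between the groups and 0.0442 for PTN with NCL in group 2. In group 2, r of PTN with SDC3 and NCL was 0.48 and 0.14 without 2 tumors. Over 19 PPGLs, r with PTPRZ1, SDC3 and NCL was -0.43, 0.0591 and 0.26 pooled, and -0.15, 0.21 and 0.0326 with each group centred, signs opposite to group 2. None of the 8 relations passed under any setting, nor without replicate 7 of group 1, a setting chosen after seeing the data. With the sample number as a block, 47 genes passed between the groups and 4653 in PPGLs against NAMs, and ALK had a log2 FC of 2.02 (adjusted p = 0.186). These numbers count different dogs, and 0 of 7, 2 of 10 and 0 of 7 same-numbered pairs deviated together. Where no reason is given, the cause was not tested. Levels near 3 counts, as of ALK and PTPRZ1 in some tumors, are not separable from absence at this depth.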
